A study of Mus musculus with 12 samples.

Results

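The genes described here encode the vitamin D receptor (Vdr), the retinoid X receptors alpha and beta (Rxra, Rxrb), the retinoic acid receptors alpha, beta and gamma (Rara, Rarb, Rarg), the cellular retinoic acid binding proteins 1 and 2 (Crabp1, Crabp2) and Cyp24a1, the 24-hydroxylase of vitamin D. They are picked out by their symbols and make up 9 of the 24421 gene symbols that were counted. In B16F10 melanoma cells, 7 of the 9 genes were expressed high enough to be tested. Vdr rose with SFN alone and with DAC+SFN, Rarb fell slightly with DAC+SFN, and Rarg was slightly higher when SFN was averaged over DAC. Neither Rxra, Rxrb, Rara nor Crabp2 passed the test in any comparison, Crabp1 had no count, and Cyp24a1 stayed at 0 to 2 counts in each library.

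The vitamin D receptor is a nuclear receptor that binds the active form of vitamin D, pairs with a retinoid X receptor and acts on DNA elements near its target genes. Retinoic acid receptors pair with the same retinoid X receptors, so both pathways draw on a shared partner. Cellular retinoic acid binding proteins carry retinoic acid within the cell, and CYP24A1 degrades active vitamin D and is itself a classical target of the vitamin D receptor. In the pigment cell lineage, retinoic acid and active vitamin D are known for slowing growth and favouring differentiation.

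B16F10 is an established mouse melanoma line, so every value stands for 1 line in culture. In all, 3 replicates were sequenced in each of 4 groups: control with the vehicle DMSO, DAC (decitabine, an inhibitor of DNA methylation, 25 nM for 72 h), SFN (sulforaphane, an isothiocyanate from cruciferous vegetables, 48 h), and DAC+SFN with both drugs. The labels give 5 nM for SFN alone and 5 µM for SFN in the combination treatment, while the methods give 5 µM for both, so a difference in dose between these groups cannot be told apart from the addition of DAC. The methods give independent biological repeats for the drug treatments, and the labels do not say which samples came from the same repeat. The labels give the control group 0.025% DMSO.

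Between 15880957 and 27291436 reads were counted on genes per library. Levels are given as CPM, the counts of a gene per 1000000 counts of its library after TMM scaling, and 1 CPM stood for 16 to 27 counts. A gene was tested when 3 or more of the 12 libraries reached 1 CPM, and it passed when its Benjamini-Hochberg adjusted p-value over all 11638 tested genes was under 0.05 in edgeR's quasi-likelihood test with the replicate number as a block. All 7 tested receptor and binding protein genes had at least 1 CPM in all 12 libraries. The 9 markers of the melanocyte lineage were all tested, with a summed level of 22487 to 31270 CPM per library. With DAC+SFN, 3 of them passed, where 31.6% of all tested genes did. These were Pmel (-0.36, adjusted p = 0.0129), Tyrp1 (-0.17, adjusted p = 0.0478) and Slc45a2 (0.18, adjusted p = 0.0236), and their part in the results was not tested. In contrast, 13 markers of other cell types summed to 15.1 to 27.8 CPM in control, 19.0 to 28.6 under DAC, 16.1 to 22.4 under SFN and 16.9 to 23.3 under both drugs. Of these, Adgre1 (macrophages) and Cdh5 (endothelium) were at 0 in all 12 libraries. Pdgfrb had the highest level of the list, at 11.7 to 19.0 CPM per library, and Col1a2 had 1.22 to 7.57 CPM. Both were tested. Lyz2, a myeloid marker, was the member of that list that rose with DAC+SFN, from 1.64 ± 0.845 to 3.35 ± 1.54 CPM (SD, n = 3; adjusted p = 0.0289 in edgeR), and its part in the results below was not tested. In bulk RNA, fewer cells of a type and less RNA per cell cannot be told apart.

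The start sites of Vdr and Rarb, the receptor genes with the changes named above against control, are shown first, as the place where nuclear receptors could bind. The 250 bases before the start were taken from RefSeq on GRCm38.p6 and are written 5′ to 3′ on the strand of the gene. In GENCODE M21 both genes reach further upstream, to 97910630 for Vdr and 16819156 for Rarb. Both stretches thus lie inside these spans, and counts per gene symbol do not show which start was used. Capitals mark half-sites of nuclear receptors, which were searched on both strands as the consensus AGGTCA and as its close variants, which were spelled AGTTCA for the first, GGGTCA for the second and GGTTCA for the last.
Vdr, chr15:97908297-97908546, minus strand: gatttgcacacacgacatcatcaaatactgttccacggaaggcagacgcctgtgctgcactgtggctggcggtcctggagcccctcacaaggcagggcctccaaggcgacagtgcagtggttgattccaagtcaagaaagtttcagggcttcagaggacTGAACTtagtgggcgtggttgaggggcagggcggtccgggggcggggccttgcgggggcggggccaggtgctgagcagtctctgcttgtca
Rarb, chr14:16575477-16575726, minus strand: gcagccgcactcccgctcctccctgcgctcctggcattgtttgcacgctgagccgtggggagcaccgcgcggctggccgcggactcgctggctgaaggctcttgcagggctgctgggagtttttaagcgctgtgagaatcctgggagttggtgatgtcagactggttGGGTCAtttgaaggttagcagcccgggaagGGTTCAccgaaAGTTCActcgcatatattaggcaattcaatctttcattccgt

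The Rarb stretch holds 3 half-sites, and the last 2 lie 5 bases apart as a direct repeat (DR5), the spacing that pairs of retinoic acid and retinoid X receptors are known to prefer. This repeat, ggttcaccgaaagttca, lies 53 to 37 bases before the start. Over the 32851 windows of 300 bases around RefSeq start sites (250 before, 50 after), a DR5 of these letters was found in 32, or 0.0974%. A half-site alone was found in 43.7% of windows. The Vdr stretch holds 1 half-site, read on the opposite strand and 91 to 86 bases before the start. A direct repeat spaced by 3 bases (DR3), the spacing typical of the vitamin D receptor, was found in 13 windows (0.0396%) and in none of the 13 windows of these genes, and a missing match says only that these letters are not in the window. Windows were given for 7 of the 9 genes, all but Crabp2 and Cyp24a1. CG dinucleotides, the sites of DNA methylation, numbered 15 in the Vdr window and 17 in each of the Rarb and Crabp1 windows, against a median of 7 over all windows, and methylation was not analysed here.

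Levels between genes were compared per exon length, as RPKM (CPM per kilobase of exons). Over the 12 libraries, Rxra was the most abundant of the 9 genes, at 23.1 ± 1.65 RPKM (mean ± SD), followed by Rarg at 17.5 ± 1.82, Rxrb at 12.2 ± 0.863 and Rara at 5.68 ± 0.767. This order held in all 12 libraries, and the ranges of neighbours in it did not overlap in any of the 4 groups. Rarb had 1.89 ± 0.283 RPKM, Crabp2 had 1.45 ± 0.310 and Vdr had 0.867 ± 0.420. These levels lay closer together: Rarb was above Crabp2 in 11 of 12 libraries, with overlapping ranges in control and DAC+SFN, and Crabp2 was above Vdr in 10 of 12 libraries, with overlapping ranges in SFN and DAC+SFN. The 2 genes of the pathways that were below the tested range are given last.

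**Figure D1:**
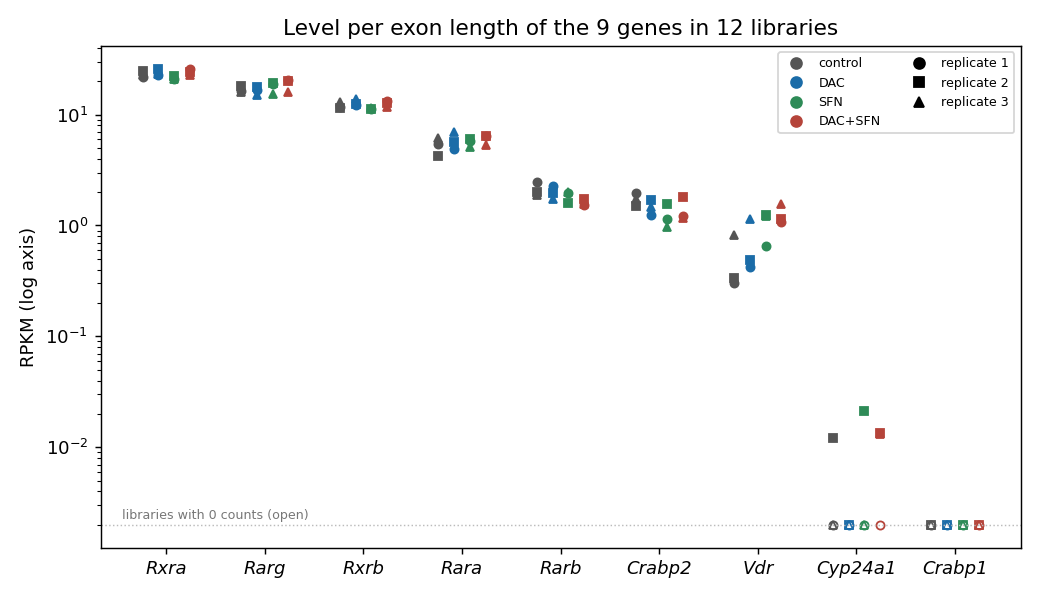
Level per exon length (RPKM, log axis) of the 9 genes in each of the 12 libraries, with groups by colour and replicate numbers by shape, and libraries with 0 counts drawn open on the dotted line. Rxra, Rarg, Rxrb and Rara keep their order in all libraries, Vdr is the tested gene with the widest spread (0.301 to 1.57 RPKM), and Crabp1 is at 0 throughout.

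Vdr is transcribed from the minus strand of chromosome 15 (97854425 to 97910630, GENCODE M21 on mm10). In replicates 1, 2 and 3 it had 1.70, 1.89 and 4.67 CPM in control, and DAC libraries had 2.40, 2.74 and 6.48 CPM. Under SFN the values were 3.67, 7.0 and 6.83 CPM, and under the combination treatment 6.10, 6.42 and 8.87 CPM. The groups of control and DAC+SFN did not overlap, whereas control replicate 3 lay above SFN replicate 1 and above 2 of the DAC libraries. Compared to control, Vdr rose by 1.16 ± 0.25 (log2 fold change ± SE; 2.23-fold) with SFN (adjusted p = 0.00599) and by 1.45 ± 0.24 (2.74-fold) with DAC+SFN (adjusted p = 0.000507), and the level was higher in 3 of 3 replicate pairs in both. With DAC single treatment, the difference was 0.52 ± 0.26, with a 95% interval of -0.028 to 1.07 and an adjusted p of 0.530, although the 3 pairs differed alike by 0.48, 0.51 and 0.46.

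Adding SFN to DAC raised Vdr by 0.93 ± 0.23 compared to DAC alone (1.91-fold, adjusted p = 0.0146). DAC added to SFN gave a difference of 0.29 ± 0.22 that did not pass (95% interval -0.17 to 0.76, adjusted p = 0.522). Averaged over DAC, SFN raised Vdr by 1.04 ± 0.17 (adjusted p = 0.000384). Averaged over SFN, DAC gave 0.41 ± 0.17 (adjusted p = 0.187). The interaction, which asks whether the effect of one drug differs with the other present, was -0.23 ± 0.34 (95% interval -0.95 to 0.50, adjusted p = 0.981), so the response to SFN was not shown to differ with DAC.

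Vdr also varied with the replicate number. Its geometric mean over the 4 groups was 3.19, 4.01 and 6.64 CPM in replicates 1, 2 and 3, a 2.08-fold range (adjusted p of the replicate number = 0.00390; 2 of the 7 genes, Vdr and Rarg, and 33.9% of all tested genes passed this test). This range is about as wide as the change with SFN, and the calls for Vdr rest on comparing samples of the same replicate number. Without the block, the log2 fold changes were 1.10 with SFN (adjusted p = 0.280) and 1.38 with DAC+SFN (adjusted p = 0.0668). They were 0.86 for DAC+SFN against DAC (adjusted p = 0.343) and 0.98 for SFN averaged over DAC (adjusted p = 0.0679). The increase with SFN alone missed the threshold without control replicate 2 (0.96, adjusted p = 0.0531) and without all libraries of replicate 1 (1.18, adjusted p = 0.0554) or 2 (0.76, adjusted p = 0.145). The increase with DAC+SFN against control passed in all 15 fits that left out a library or a replicate number (1.26 to 1.80).

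**Figure D2:**
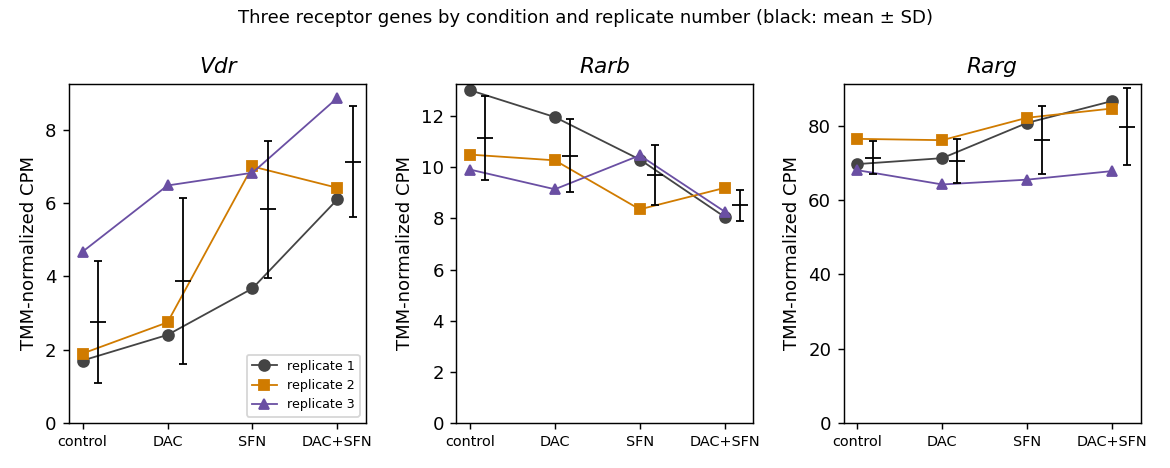
TMM-normalized CPM of Vdr, Rarb and Rarg in the 4 groups, with a line for each replicate number and the mean ± SD of each group in black (n = 3). For Vdr, replicate 3 starts highest in control (4.67 CPM) and every line ends above its control value, whereas for Rarb every line ends below it, and for Rarg replicate 3 ends level with its control while replicates 1 and 2 end above.

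The shared partners of these receptors are Rxra (chromosome 2, 27676440 to 27762957, plus strand) and Rxrb (chromosome 17, 34031812 to 34038399, plus strand). Rxra had 119, 134 and 124 CPM in control, against 125, 141 and 128 under DAC, 114, 120 and 115 under SFN and 140, 133 and 124 under the combination treatment. Its SFN libraries were the lowest on average and did not overlap with those of DAC+SFN, a difference of 0.19 ± 0.059 that did not pass (adjusted p = 0.113). Compared to control, the differences of Rxra were 0.063 with DAC, -0.11 with SFN and 0.080 with DAC+SFN, and the 95% intervals of all of them lay within -0.23 and 0.21. A change of Rxra as large as that of Vdr thus lay outside these intervals.

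Rxrb had 46.9, 45.9 and 51.9 CPM in control, and DAC libraries had 48.1, 49.8 and 55.0 CPM. Under SFN the values were 44.7, 44.5 and 45.3 CPM, and under the combination treatment 52.7, 50.04 and 46.5 CPM. The SFN libraries lay below all control and all DAC+SFN libraries, but the differences were small and did not pass (-0.10 ± 0.073 for SFN against control, adjusted p = 0.383, and 0.15 ± 0.073 for DAC+SFN against SFN, adjusted p = 0.297). Rxra made up 65.1% to 65.9% of the RXR level per length in the means of the 4 groups, with Rxrb nearly all the rest. Rxrg, which encodes the remaining retinoid X receptor, reached at most 0.118% in any library. The ratio of Rxra to Vdr per length was 57.6 on average in control (27.4 to 73.2), 42.4 under DAC (20.4 to 53.7), 22.5 under SFN (17.4 to 32.2) and 19.9 under both drugs (14.5 to 23.7). In this ratio the DAC+SFN libraries lay below all control libraries.

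**Figure D3:**
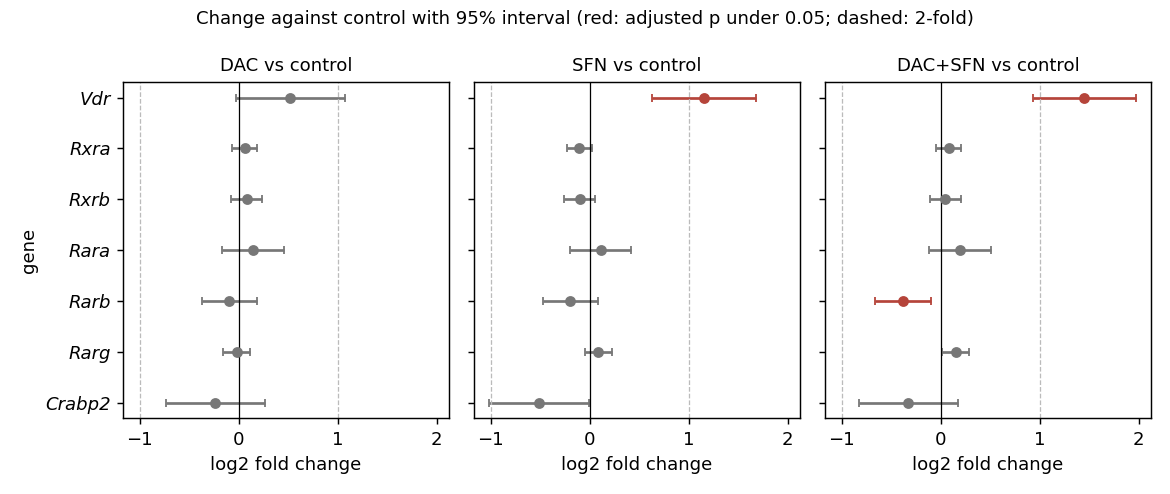
Log2 fold change against control of the 7 tested genes, with 95% intervals, for DAC, SFN and DAC+SFN. Red points passed at an adjusted p under 0.05 and dashed lines mark a 2-fold change. Vdr with SFN and with DAC+SFN and Rarb with DAC+SFN are the points that passed, and the intervals of Rxra, Rxrb, Rara and Rarg lie inside the dashed lines in all panels.

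Of the retinoic acid receptors, Rarg was the most abundant. It lies on the same chromosome as Vdr (chromosome 15, 102234938 to 102257517, minus strand). Rarg had 69.7, 76.5 and 68.1 CPM in control, against 71.3, 76.2 and 64.2 under DAC, 80.8, 82.2 and 65.5 under SFN and 86.7, 84.7 and 67.9 under the combination treatment. Replicates 1 and 2 were higher with SFN, with and without DAC, whereas replicate 3 was at or near its control. Averaged over DAC, Rarg was higher with SFN by 0.13 ± 0.045 (1.09-fold, adjusted p = 0.0411). No single comparison of Rarg with control passed (adjusted p = 0.944 with DAC, 0.395 with SFN and 0.0799 with DAC+SFN). The averaged difference passed in 5 of the 15 fits without a library or a replicate number, which were those without a library of replicate 3 or all of them. It had an adjusted p of 0.0600 with DESeq2, 0.0918 without the filter on low counts and 0.298 without the replicate block, and was 0.071 without the libraries of replicate 1 (adjusted p = 0.425). Like Vdr, Rarg varied with the replicate number, with geometric means of 76.9, 79.9 and 66.5 CPM (adjusted p = 0.00476), but replicate 3 was the lowest for Rarg and the highest for Vdr.

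Rarb, which is itself a classical target of retinoic acid, lies on chromosome 14 (16430839 to 16819156, minus strand) and has the DR5 shown above. It had 13.0, 10.5 and 9.91 CPM in control, against 11.96, 10.3 and 9.14 under DAC, 10.3, 8.35 and 10.5 under SFN and 8.06, 9.19 and 8.27 under the combination treatment. All DAC+SFN libraries lay below all control libraries. Rarb fell by 0.38 on the log2 scale with DAC+SFN (SE 0.13, 95% interval -0.67 to -0.098, adjusted p = 0.0401), to 0.767 of its control level, and was lower in 3 of 3 pairs, with differences of -0.69, -0.19 and -0.26. The differences with DAC (-0.094, adjusted p = 0.856) and SFN (-0.20, adjusted p = 0.348) did not pass. The difference with DAC+SFN passed in 7 of the 15 fits without a library or a replicate number, and missed the threshold without replicate 1 or 2 of control, replicate 2 of DAC, replicate 1 of SFN, replicate 1 or 3 of DAC+SFN, or all libraries of replicate 1 or 2. Leaving out all libraries of replicate 1 gave -0.23 (adjusted p = 0.396), and leaving out the block gave -0.39 (adjusted p = 0.111). Exons of Rarb share 1793 bases (34.1% of their length) with exons of Top2b, a gene on the opposite strand, named here after its values were seen, and as the counting strand was not stated, reads of both cannot be told apart there. Top2b had 178 ± 6.68 CPM in control and 162 ± 20.9 CPM with DAC+SFN (SD, n = 3), a log2 difference of -0.14 ± 0.071 (adjusted p = 0.147), and its part in the value of Rarb was not tested.

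Rara (chromosome 11, 98927818 to 98974942, plus strand) had 23.8, 18.3 and 26.9 CPM in control, against 21.2, 24.4 and 30.4 under DAC, 25.5, 26.3 and 22.2 under SFN and 27.8, 27.9 and 23.1 under the combination treatment. The groups overlapped in every comparison. Against control, the differences were 0.14 ± 0.15 with DAC, 0.11 ± 0.15 with SFN and 0.20 ± 0.15 with DAC+SFN (adjusted p = 0.791, 0.671 and 0.322), and the 95% interval of the last reached from -0.11 to 0.51.

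As shares of the RAR level per length, Rarg made up 69.4% ± 4.32 in control and 71.0% ± 1.08 with DAC+SFN, and Rara 21.8% ± 4.19 and 22.8% ± 0.341 (SD, n = 3). Rarb had the smallest share, with 8.76% ± 1.25 in control, 8.17% ± 1.19 under DAC, 7.35% ± 1.48 under SFN and 6.18% ± 0.738 under both drugs. The shares of Rarb in DAC+SFN (5.42% to 6.89%) lay below those in control (7.83% to 10.2%), and Rarg remained the main RAR gene in every library.

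**Figure D4:**
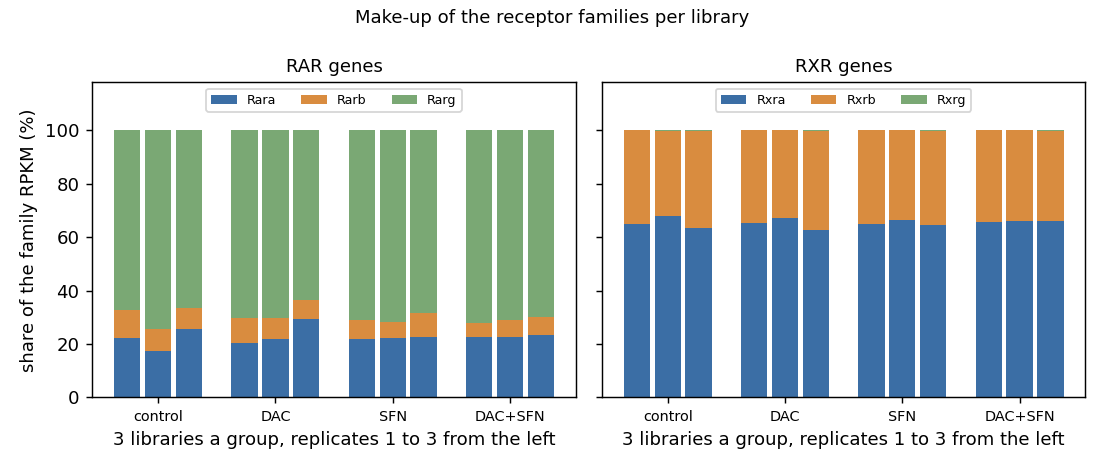
Share of each gene in the summed RPKM of the RAR genes (left) and RXR genes (right), as stacked bars for each of the 12 libraries. Rarg holds 63.4% to 74.4% of the RAR level and Rxra 62.7% to 67.9% of the RXR level, and Rxrg is too low to be seen.

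Of the binding proteins, Crabp2, which hands retinoic acid to its nuclear receptors, was low, with 31 to 56 counts per library. It had 2.58, 1.98 and 2.31 CPM in control, against 1.66, 2.23 and 1.95 under DAC, 1.51, 2.07 and 1.27 under SFN and 1.59, 2.39 and 1.54 under the combination treatment. The second replicate was higher than the others with each treatment, and the groups overlapped throughout. The largest of its differences from control was -0.51 ± 0.24 with SFN (adjusted p = 0.17), with a 95% interval of -1.02 to -0.0055, so at this depth the interval reached from about a 2-fold decrease to nearly 0. Crabp2 lies on chromosome 3 (87948666 to 87953376, plus strand). Crabp1 (chromosome 9, 54764748 to 54773110, plus strand) had 0 counts in all 12 libraries, which allows up to 0.0112 CPM over the pooled libraries (3 counts, covering counting error only). The 3 DAC and 3 DAC+SFN libraries were among them.

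Cyp24a1 (chromosome 2, 170482708 to 170497145, minus strand) had 1 count in control replicate 2, 2 counts in SFN replicate 2, and 1 count in each of DAC+SFN replicates 2 and 3, and 0 in the other 8 libraries. Its exons share 83 bases (2.33% of their length) with exons of Pfdn4, named here for this reason, so reads of both cannot be told apart there. With 3 counts standing for 0.112 to 0.191 CPM, a difference between the groups was not detectable at this depth. In no library did Cyp24a1, as a vitamin D receptor target, pass this limit, those with the highest Vdr included.

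Among the 7 tested genes, 0 passed with DAC, where 0.18% of all tested genes passed (0 of the 7 and 1170 of all 11638 genes had an unadjusted p under 0.05, and DESeq2 called 0 of the 7 here and in the other comparisons with a count of 0 given next). One of the 7 (Vdr) passed with SFN, where 13.9% of all tested genes did, and 2 (Vdr up, Rarb down) passed with DAC+SFN, where 31.6% did. DAC+SFN against DAC gave 1 (Vdr; 16.1% of all), DAC+SFN against SFN 0 (1.61% of all; 1 of the 7 and 2072 of all genes at an unadjusted p under 0.05), SFN averaged over DAC 2 (Vdr and Rarg; 29.6% of all), DAC averaged over SFN 0 (5.22% of all; 3 of the 7 and 2407 of all genes at an unadjusted p under 0.05) and the interaction 0 (0% of all; 0 of the 7 and 683 of all genes at an unadjusted p under 0.05). These counts are near the shares over all genes. With a fold change above 2 asked for as well, Vdr alone passed with SFN (1.28% of all genes) and with DAC+SFN (2.66% of all). Groups did not overlap for 0 of the 7 with DAC (8.43% of all), 1 with SFN (Rxrb; 20.8% of all), 2 with DAC+SFN (Vdr and Rarb; 29.4% of all), 0 for DAC+SFN against DAC (18.2% of all) and 2 for DAC+SFN against SFN (Rxra and Rxrb; 12.1% of all). The comparisons with control share the control libraries.

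For the 3 genes that passed a test, the tested genes with the most similar pattern were sought by Pearson correlation of log2 CPM over the 12 libraries after the mean of each replicate number was taken out. For Vdr they were Npr2 (r = 0.986), Ggt1 (r = 0.983) and A430105I19Rik (r = 0.981). For Rarb they were Apitd1 (r = 0.967), Cyb5r4 (r = 0.953) and Dpy19l1 (r = 0.946), and for Rarg Hoxa6 (r = 0.957), Nacc2 (r = 0.951) and Cndp2 (r = 0.951). The points share their libraries and conditions, so these values describe likeness only. Ggt1, for example, had mean levels of 12.5 CPM in control, 18.0 under DAC, 35.3 under SFN and 47.5 under both drugs, the same order of the groups as Vdr.

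The genes around these receptors were followed in 6 lists with 100 genes, of which 54 were tested. The 33 calls of these genes against control kept their direction under all alternatives, and those that passed without the replicate block included Aldh1a3 with SFN and, with DAC+SFN, Aldh1a3, Cdkn1a, Fabp5, Rdh5 and Retsat. Of the 20 genes of retinoid supply and turnover, 9 were tested. With SFN 3 of the 9 rose (Aldh1a3, Rdh5 and Dhrs3; 13.9% of all tested genes passed in either direction), and with DAC+SFN 3 rose (Aldh1a3, Rdh5 and Retsat) and 2 fell (Fabp5 and Rdh11; 31.6% of all passed). Aldh1a3, which makes retinoic acid from retinal, had 6.29 ± 0.639 CPM in control, 9.05 ± 2.49 under DAC, 18.9 ± 5.96 under SFN and 19.6 ± 5.47 under the combination treatment (SD, n = 3), a log2 fold change of 1.56 with SFN (adjusted p = 5.57e-06) and 1.62 with DAC+SFN (adjusted p = 1.74e-06). Rdh5, a retinol dehydrogenase, had 3.32 ± 1.03 CPM in control, 7.57 ± 1.26 with SFN and 7.41 ± 1.40 with DAC+SFN (1.20 and 1.18, adjusted p = 0.00116 and 0.000600). Retinoic acid, the product of Aldh1a3, is the ligand of the retinoic acid receptors, and its amount was not measured here. Dhrs3, which turns retinal back to retinol, rose by 0.43 with SFN (adjusted p = 0.0268), and Retsat, the retinol saturase, rose by 0.40 with DAC+SFN (adjusted p = 0.00167). Fabp5, which carries fatty acids and retinoic acid, fell by 0.38 on the log2 scale with DAC+SFN (adjusted p = 0.000283), and Rdh11, named after its values were seen, fell by 0.23 (adjusted p = 0.00552). The median of the list was 0.20 with SFN and 0.029 with DAC+SFN, against 0.0040 and 0.0078 over all tested genes.

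Of the 25 listed targets of the vitamin D receptor, 10 were tested. With SFN 2 rose and 2 fell (13.9% of all tested genes passed), with DAC+SFN 3 rose and 2 fell (31.6% of all passed), and the median of the list was -0.078 and -0.018. Cdkn1a, the inhibitor p21 of cyclin-dependent kinases, had 301 ± 66.5 CPM in control, 457 ± 115 under DAC, 594 ± 177 under SFN and 776 ± 193 under the combination treatment (SD, n = 3). It was the gene of the 6 lists that passed with DAC alone (0.60, adjusted p = 0.0441), and it rose by 0.96 with SFN (adjusted p = 6.27e-05) and 1.36 with DAC+SFN (adjusted p = 1.91e-06). The other members that rose were Spp1, which encodes osteopontin (0.80 with SFN, adjusted p = 0.00237, and 0.89 with DAC+SFN, adjusted p = 0.000493), and Gadd45a, a stress gene (0.50 with DAC+SFN, adjusted p = 0.0111). Those that fell, named after their values were seen, were Ier3 (-0.64 and -0.71, adjusted p = 0.0381 and 0.0123) and Txnip (-0.45 and -0.37, adjusted p = 0.0239 and 0.0345). Cdkn1a, Gadd45a and Ier3 are known to respond to many other signals as well.

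Of the 24 listed targets of retinoic acid, 11 were tested, and 1 rose and 1 fell with both SFN (13.9% of all passed) and DAC+SFN (31.6% of all passed). Sox9, a transcription factor, fell by 0.50 on the log2 scale with SFN (adjusted p = 0.00682) and by 0.41 with DAC+SFN (adjusted p = 0.0108). Dhrs3 was the member that rose with SFN, and Tgm2, a transglutaminase, rose by 0.83 with DAC+SFN (adjusted p = 0.00513). The medians were 0.0023 and 0.013.

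Of the 8 genes of vitamin D supply and turnover, 4 were tested, of which 2 fell with SFN (13.9% of all tested genes passed) and 3 with DAC+SFN (31.6% of all passed). Dhcr7, which uses up the precursor of vitamin D for cholesterol synthesis, had 223 ± 17.2 CPM in control, 175 ± 27.5 with SFN and 176 ± 13.1 with DAC+SFN (-0.35 and -0.34, adjusted p = 0.00229 and 0.00129). Cubn, an uptake receptor for vitamin D carried on its binding protein, fell in both (-0.40 and -0.28, adjusted p = 0.0159 and 0.0434). Pdia3, a protein disulfide isomerase also described as a membrane binder of vitamin D, fell by 0.15 on the log2 scale with DAC+SFN (adjusted p = 0.0416). The median of the 4 was -0.38 with SFN and -0.22 with DAC+SFN.

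Of 15 other nuclear receptors and partners, 9 were tested, of which 1 rose with SFN (13.9% of all tested genes passed) and 3 with DAC+SFN (31.6% of all passed), shares near those of all genes, with medians of 0.031 and 0.087. Nr1h4, the bile acid receptor, which also pairs with retinoid X receptors, rose by 0.47 with SFN (adjusted p = 0.00189) and by 0.76 with DAC+SFN (adjusted p = 1.76e-05), from 20.9 ± 6.38 CPM in control to 35.2 ± 8.23 CPM with DAC+SFN (SD, n = 3). Nr4a2 rose by 0.58 with DAC+SFN (adjusted p = 0.00703), as did Nr4a1, named after its values were seen, by 0.36 (adjusted p = 0.0236). Of the 14 coregulators, all tested, 0 passed in edgeR with SFN (1 at an unadjusted p under 0.05), and with DAC+SFN the acetyltransferase Ep300 rose (0.20, adjusted p = 0.0139) and the deacetylase Hdac3, named after its values were seen, fell by 0.15 on the log2 scale (adjusted p = 0.0488). The medians of the coregulators were -0.064 and 0.0007.

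**Figure D5:**
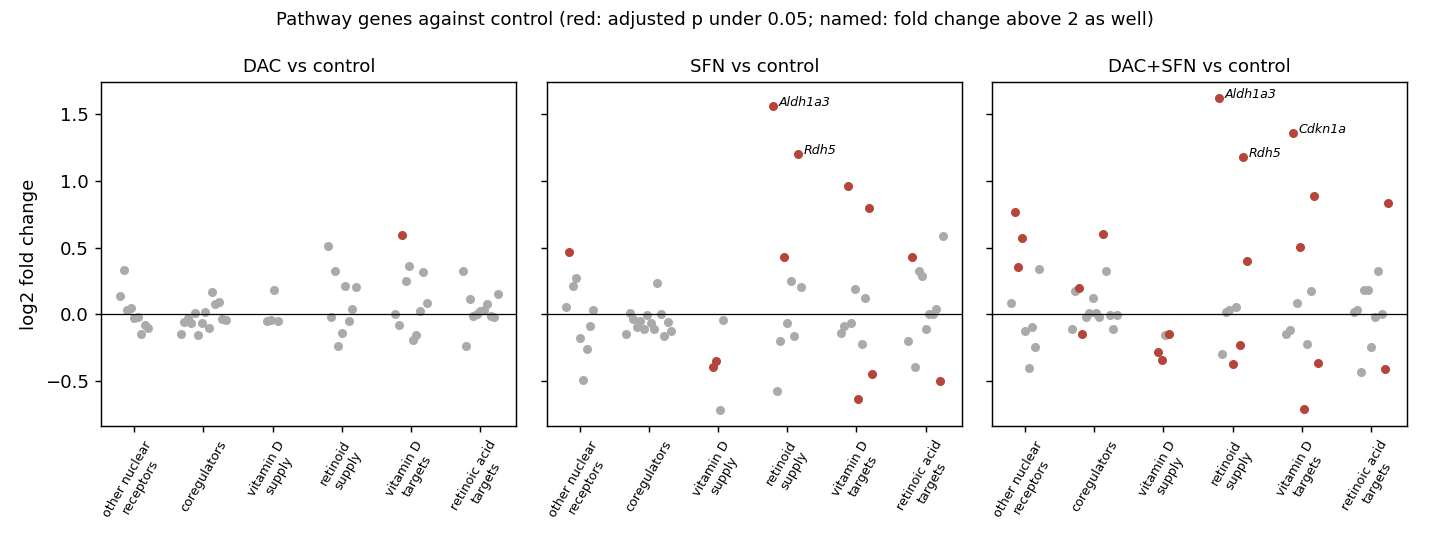
Log2 fold change against control of the 54 tested genes of the 6 pathway lists, a point per gene and list, for DAC, SFN and DAC+SFN. Red points passed at an adjusted p under 0.05 and named genes had a fold change above 2 as well. With DAC 1 gene is red, whereas Aldh1a3 and Rdh5 stand highest with SFN, joined by Cdkn1a with DAC+SFN.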

How the data were processed

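RNA of 12 B16F10 samples was sequenced from libraries of a stranded kit. The authors deposited raw read counts per gene symbol for each sample, not normalized. Per the submitters' processing notes, they used FastQC 0.11.7, Trimmomatic 0.38, TopHat2 2.1.1 and HTSeq, on mm10. The annotation and the strand setting of the counting are not given in the sources used here. The 0 rows without a gene name needed no removal.

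Counts were scaled by TMM and tested in edgeR 4.0.16 (R 4.3.3, limma 3.58.1) with glmQLFit and glmQLFTest, two-sided, in 1 model of all 12 samples with condition and replicate number, as the study's methods correct for a batch that they do not name. Samples of the same replicate number deviated together from their group means in all 18 pairs (r 0.270 to 0.732), so the numbers were taken to pair the samples. The library numbers in the labels follow the replicate number and cannot be told apart from it. Log2 fold changes carry a prior count of 0.125 and CPM values on the log2 scale one of 2. RPKM used exon lengths of GENCODE M21. SE is the log2 fold change over the square root of F. Depth limits the genes under about 1 CPM, and limits from a count of 0 (3 counts) cover counting error only.

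The text names the 9 genes, Rxrg, the list genes past an adjusted p of 0.05 and a fold change above 2, up to 2 further genes per list and comparison with the smallest adjusted p under 0.05, and the 3 closest genes in pattern. The genes and lists were chosen with earlier results of these data known. Alternatives were DESeq2 1.42.0, its size factors, the version 4 fit of edgeR, other filters, another prior count, only the groups compared, no replicate block, and leaving out each library. Leaving out all libraries of a replicate number was chosen after seeing the data. The fit was tested on simulated data. The plots were made in Python 3.11.15 using matplotlib 3.10.9. Some results for single genes of the lists are not reported here.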

Additional observations from a re-analysis of the deposited data

How the results depend on the processing

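Over 56 log2 fold changes of the 7 tested genes and 1267 alternatives of them, 1170 kept direction and side of the threshold, 35 lost a call, 16 gained one and 46 changed sign, all of the last in values that had not passed the test. The number of the 7 genes past the test, without the replicate block, was 0 in place of 1 with SFN, 0 in place of 2 with DAC+SFN, 0 in place of 1 for DAC+SFN against DAC and 0 in place of 2 for SFN averaged over DAC. With a fold change above 2 asked for as well, it was 1 with DAC+SFN, 0 for DAC+SFN against DAC and 1 for SFN averaged over DAC. In fits of only the groups compared, it was 1 with DAC+SFN and 1 for DAC+SFN against SFN (Rxra), and with DESeq2 it was 1 for SFN averaged over DAC. Without a library or a replicate number, it ranged from 0 to 1 with SFN, from 1 to 4 with DAC+SFN, from 0 to 2 for DAC+SFN against DAC, from 0 to 2 for DAC averaged over SFN and from 1 to 4 for SFN averaged over DAC. The increase of Vdr with DAC+SFN against DAC passed in 10 of these 15 fits and missed the threshold without DAC replicate 1 (adjusted p = 0.0709) or 2 (0.0742), without DAC+SFN replicate 1 (0.0912), and without all libraries of replicate 1 (0.223) or 2 (0.0564), in edgeR. Vdr with SFN averaged over DAC passed in 15 of 15. The cause of these changes was not tested. Without the filter on low counts, Rxra in DAC+SFN against DAC was -0.0015. Leaving out a library or a replicate number gave log2 ranges across 0 for Crabp2 (-0.15 to 0.10) and Rarg (-0.0035 to 0.052) with DAC averaged over SFN; for Crabp2 (-0.25 to 0.035), Rara (-0.11 to 0.29), Rxra (-0.060 to 0.056) and Rxrb (-0.12 to 0.063) in DAC+SFN against DAC; for Rara (-0.030 to 0.30) and Rarg (-0.073 to 0.038) with DAC; for Rara in DAC+SFN against SFN (-0.034 to 0.23), with SFN averaged over DAC (-0.060 to 0.29) and with SFN (-0.094 to 0.29); for Rxra (-0.00020 to 0.12) and Rxrb (-0.016 to 0.14) with DAC+SFN; and for the interaction in Rara (-0.22 to 0.12), Rarb (-0.23 to 0.033) and Vdr (-0.52 to 0.13). Of the 33 calls of pathway list genes against control, 13 held in every fit without a library or replicate number, 6 under every alternative, and 0 changed sign, in alternatives chosen for them after seeing the data. Depth limits Crabp2 (31 to 56 counts per library) and Vdr (37 to 190 counts) most among the tested genes.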
